A study of Saccharomyces cerevisiae with 12 samples.

Results

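The genes described here are the outermost open reading frames (ORFs) of every chromosome arm of the budding yeast Saccharomyces cerevisiae. Systematic ORF numbers in this species count outward from the centromere, so the 10 highest-numbered ORFs of each of the 32 arms, protein-coding genes and pseudogenes alike, were taken as the arm end. ORFs whose systematic name carries a letter suffix were not counted. Of these 320 ORFs, 16 were left out because their symbol starts with THI, PHO, IMD, FET, FRE, ARN or HML, or is HXK1, JEN1 or SIR1. This left 304 genes, and 215 of them (70.7%) were measured on the array, out of 5449 yeast genes measured in all. The 89 members not measured include all 11 pseudogenes and all 8 genes of the YRF1 family, the Y' element helicases that lie beside the telomere itself. Coverage fell towards the end: of the 32 arms, 26 had a measured member at rank 10 but 8 had one at rank 1, the last ORF of an arm.

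Subtelomeres are the gene-poor stretches between the telomere repeats and the body of the chromosome. In budding yeast they are anchored at the nuclear envelope and are partly silenced by the Sir proteins, which are recruited through Rap1 and deacetylate histones. They hold families of near-identical genes that were copied from arm to arm, such as the PAU and COS genes, and many genes used only under particular growth conditions, such as those for maltose use. Nup60 is a protein of the nuclear basket, the part of the nuclear pore that faces the chromatin. Ada2 is a subunit of the SAGA complex, whose Gcn5 subunit acetylates histones at promoters.

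The study compared 4 strains, with 3 arrays each that the labels call biological replicates. The Dnup60 strain has NUP60 replaced by the KANR marker, the Dada2 strain has ADA2 replaced by it, the Dnup60 Dada2 strain is labelled with both replacements, and the wildtype strain has neither. All 4 are labelled MATa his3 leu2 met15 ura3 and were grown in 50 mL of the rich medium YEPD at 30 °C and collected at mid-log phase. Each group is a single strain, so the effect of a deletion and of any other difference between strains cannot be told apart. Each array reads RNA of a whole culture, so fewer expressing cells and less RNA per cell cannot be told apart either. Values are log2 intensities, and a gene was called where limma gave a Benjamini-Hochberg adjusted p below 0.05 over all 5449 genes.

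The deleted genes followed their labels. NUP60 lay at 6.17 to 6.51 on the Dnup60 arrays and 6.02 to 6.32 on the Dnup60 Dada2 arrays, against 12.50 to 12.57 in wildtype, and ADA2 lay at 4.03 to 4.40 in Dada2 and 4.21 to 4.51 in Dnup60 Dada2, against 10.92 to 10.96 in wildtype. Other genes went against the label of the third strain. URA3, which the label calls mutant, was at 12.50 to 13.16 on the Dnup60 Dada2 arrays and no higher than 4.75 on any other array, and STE3, the a-factor receptor made by cells of mating type alpha, was at 12.19 to 12.45 there and no higher than 7.81 elsewhere. That strain is therefore called the labelled double deletion, and each direction given for it carries this difference in markers and mating type as well as the deletions. Control transcripts added to the RNA (poly-A spikes) averaged 8.95 on wildtype array 1 and 9.14 on labelled double deletion array 3, against 6.74 to 7.99 on the other 10 arrays. The counts below were therefore also taken without these 2 arrays.

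Outermost genes were dimmer than the rest of the genome on every array. Their median log2 intensity was 9.81 to 9.85 on the Dnup60 arrays, 9.81 to 9.86 on the Dada2 arrays, 10.21 to 10.29 on the arrays of the labelled double deletion and 9.63 to 9.74 on the wildtype arrays. The wildtype arrays were thus the lowest and those of the labelled double deletion the highest, with no overlap between groups except Dnup60 with Dada2. The median over all 5449 genes was 11.21 to 11.28 on the 12 arrays. The brightest member was ZUO1, a ribosome-associated chaperone, with group means of 14.60 in Dnup60, 14.66 in Dada2, 14.70 in the labelled double deletion and 14.63 in wildtype. The dimmest was YEL075C, with 4.17, 4.06, 4.20 and 3.90 in the same order, below the background level of 5.62 on all arrays. In all, 7 of the 215 members stayed below that level on all 12 arrays: YFR057W, YEL075C, HXT15, HXT13, HXT8, YAL065C and YHR213W.

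In Dnup60 cells the outermost genes split in both directions. Of the 215 measured, 59 (27.4%) were called higher and 45 (20.9%) lower than in wildtype, next to 25.1% higher and 26.2% lower among all genes. The median log2 difference of the members was 0.03, against -0.02 over all genes. A call of at least 2-fold was made upward for 7 members, beside 2.61% of all genes, and downward for 0, beside 0.0551% of all genes. A further quantile normalization of the deposited values gave 40 higher and 66 lower with a median of -0.06, so the balance of directions in Dnup60 turns with the scaling. Without the 2 arrays with high spikes, 75 were higher and 49 lower.

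In Dada2 cells more outermost genes were called higher than lower. The counts were 79 higher (36.7%) and 33 lower (15.3%) than in wildtype, next to 22.7% and 23.0% of all genes, and the median log2 difference was 0.08 against -0.01. At least 2-fold calls were 6 upward and 1 downward, beside 1.25% and 1.06% of all genes. Quantile normalization gave 73 higher and 39 lower, and leaving out the 2 arrays gave 92 and 43.

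The labelled double deletion differed most. There 117 outermost genes (54.4%) were called higher and 44 (20.5%) lower than in wildtype, next to 36.1% and 37.1% of all genes, and the median log2 difference was 0.30 against -0.01. At least 2-fold higher were 38 members (17.7%), beside 7.41% of all genes, and at least 2-fold lower were 5, beside 2.31%. Quantile normalization gave 95 higher and 64 lower with a median of 0.10. Leaving out the 2 arrays with high spikes gave 130 higher and 41 lower. No set test was made, so these shares describe the members and do not show that they stand apart.

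Among genes other than the members, dim ones rose more often than bright ones in each deletion strain, and the members hold many dim genes. Among the 109 members with a mean log2 intensity below 10, 64.2% were higher and 7.34% lower in the labelled double deletion, beside 46.8% and 20.8% of the 1019 other genes below that level. Among the 106 members at or above 10, 44.3% were higher and 34.0% lower, beside 32.6% and 41.9% of the 4215 other genes there. In both level ranges the members' share of rises was above that of other genes in this strain. Levels inside each range were not matched, so the part of level in this was not tested. In Dada2 the shares higher were 34.9% of the dimmer members beside 25.6% of other dim genes, and 38.7% of the brighter members beside 21.3%. In Dnup60 the members' shares lay near those of other genes in the same ranges: 30.3% were higher below 10 beside 31.6% of other genes, and 24.5% were higher at or above 10 beside 23.4%.

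**Figure D1:**
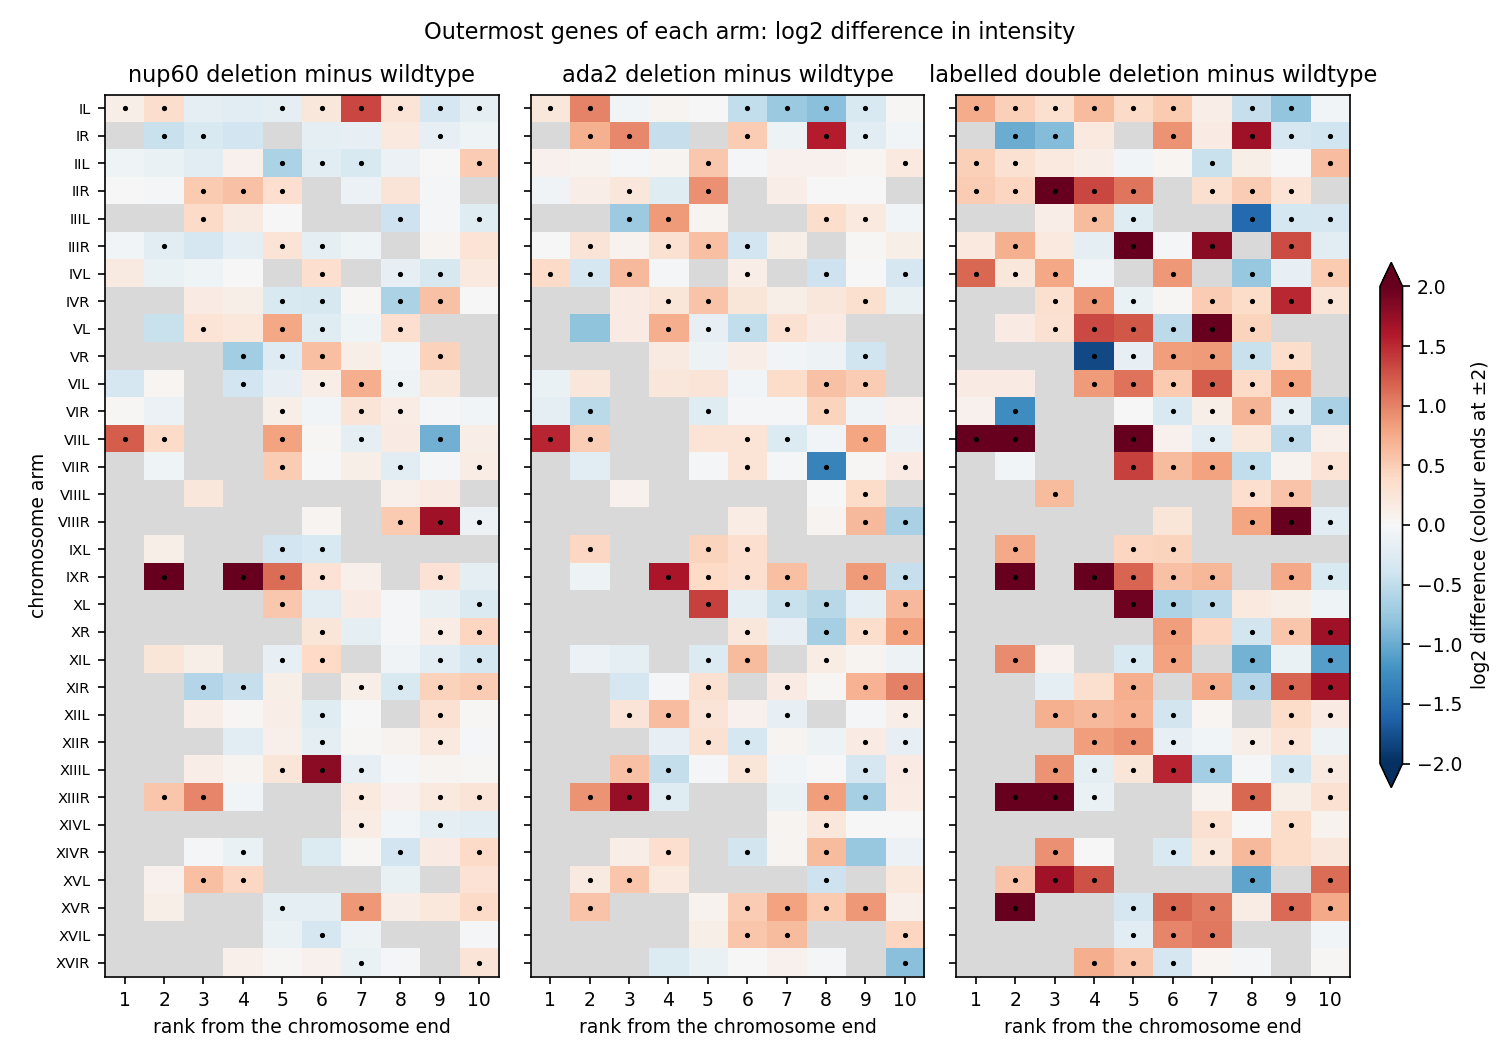
Map of the 32 chromosome arms (rows) and the 10 outermost ranks of each (columns, rank 1 the last ORF), coloured by the log2 difference in intensity from wildtype in Dnup60, Dada2 and the labelled double deletion; grey cells were not measured or left out, and a dot marks a called gene. In the labelled double deletion 117 measured genes were called higher and 44 lower. Every arm holds at least 1 rise there and 26 arms hold a fall, while rises lie on 30 arms in Dada2 and 28 in Dnup60.

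Rises in the labelled double deletion were spread over the genome, as the map of arms shows. The median log2 difference of an arm's measured genes was above 0 on 28 of the 32 arms. A called rise was found on all 32 and a called fall on 26. Called rises were found on 30 arms in Dada2 and on 28 in Dnup60. No such count was made for genes further in, and 36.1% of all genes were called higher in the labelled double deletion. The 4 arms with a median below 0 there were IIIL at -0.30, XIL at -0.13, VIR at -0.09 and IR at -0.08. The highest medians were those of XVL at 1.12 (5 genes measured), XVR at 1.04 (7 genes) and IXR at 0.76 (7 genes). In Dada2 22 arms had a median above 0 and 23 held more rises than falls. In Dnup60 17 arms were above 0 and 14 below, and 13 held more rises than falls.

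Neighbouring genes were set side by side in 157 pairs of adjacent measured members. In the labelled double deletion 53 pairs (33.8%) were both higher than in wildtype, beside 13.8% of 4841 such pairs over all genes. Single members were also called higher more often there, at 54.4% beside 36.1% of all genes. Where both genes of a pair were called, they had the same direction in 69.2% of 39 pairs in Dnup60, 59.1% of 44 in Dada2 and 67.8% of 90 in the labelled double deletion. Over all genes these shares were 53.4%, 55.6% and 53.6% in the same order. The members' own split into rises and falls, with no regard to position, gives 50.9%, 58.4% and 60.3% in the same order, so in Dada2 neighbours shared a direction about as often as any called members. The differences in the other strains were not tested, and neither was the part of members that share probe sequence.

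By position, the last 5 ranks before the telomere rose more often than the next 5 in the labelled double deletion. Of 85 genes at ranks 1 to 5, 54 were higher and 12 lower than in wildtype with a median log2 difference of 0.51, and of 130 at ranks 6 to 10, 63 were higher and 32 lower with a median of 0.19. In Dada2 the counts were 35 higher and 8 lower at ranks 1 to 5 (median 0.16) and 44 and 25 at ranks 6 to 10 (median 0.06). In Dnup60 they were 23 and 15 (median 0.04) and 36 and 30 (median 0.01). The outer ranks differ from the inner ranks in other ways too: their median level was 8.88 against 10.30, and 33 of 85 against 11 of 130 were read by probe sets that the array's naming marks as sharing sequence with other genes. The difference between the outer and the inner ranks was not tested.

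**Figure D2:**
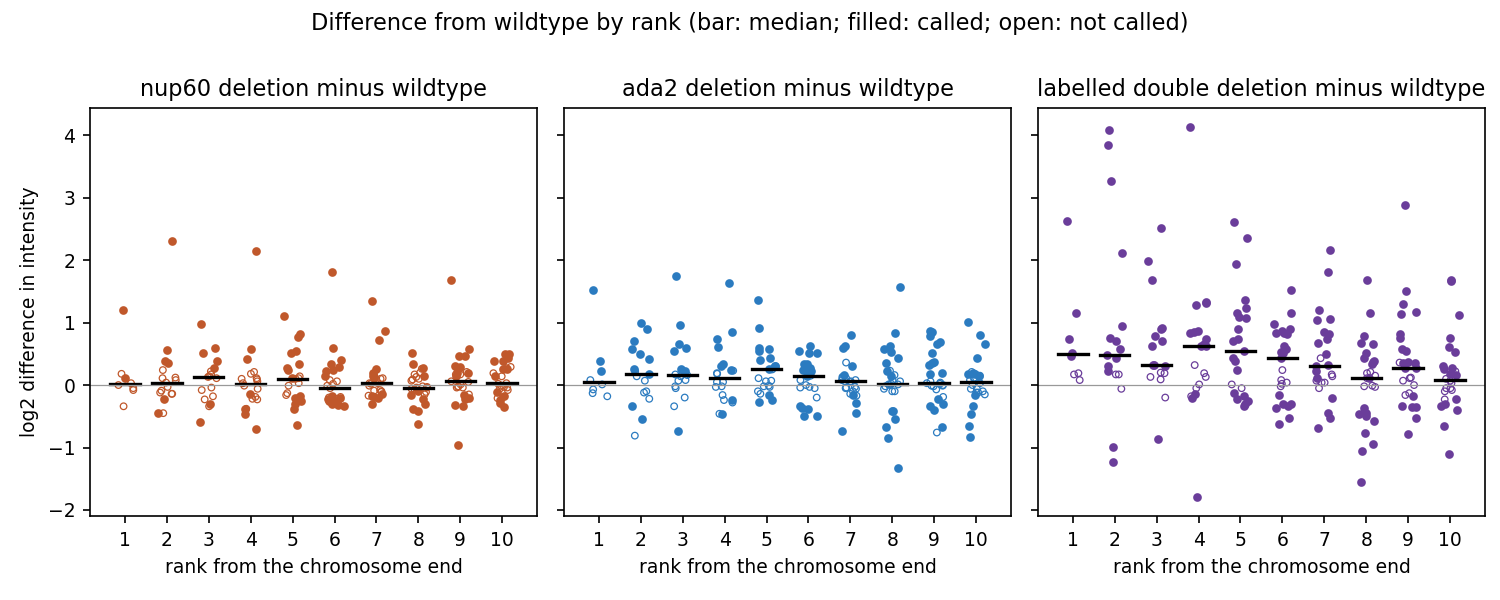
Log2 difference in intensity from wildtype (vertical axis) of every measured outermost gene by its rank from the chromosome end (horizontal axis), for Dnup60, Dada2 and the labelled double deletion; bars are medians, filled points were called and open points were not. In the labelled double deletion the medians were 0.63 at rank 4 and 0.08 at rank 10.

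The 8 measured genes at rank 1 ran over the whole range of levels. COS2 and YBL113C were among the brightest members and YFR057W stayed below background. In the labelled double deletion 5 of the 8 were higher than in wildtype: COS12 by 2.63, COS7 by 1.15, PAU8 by 0.74, COS2 by 0.51 and YBL113C by 0.47 on the log2 scale. The other 3, YCR108C at 0.19, YFL068W at 0.17 and YFR057W at 0.08, did not pass. In Dnup60 COS12 and PAU8 passed, and in Dada2 COS12, COS7 and PAU8 did.

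The PAU genes encode seripauperins, small serine-poor proteins of the cell wall mannoprotein group that are repressed by oxygen and haem in aerobic cultures. Of 18 PAU members 7 were measured, all by probe sets that share sequence with other genes, so each value can hold signal of its relatives. All 7 were higher in the labelled double deletion than in wildtype, with log2 differences of 0.43 (PAU24) to 2.36 (PAU3) in the 6 that were above background in wildtype. The median of the 7 was 0.75, also with PAU21, which was below background in wildtype, set at the background level there. Quantile normalization kept 6 of these calls, but PAU24 came out at -0.10. In Dada2 6 of 7 were higher, with a median of 0.30, or 0.25 with values below background set to that level. In Dnup60 PAU3 and PAU8 were called higher at 0.28 and 0.12, the median was 0.12, and quantile normalization left neither call and made 1 lower call. The PAU8 call in Dnup60, at an adjusted p of 0.0490, was lost under 13 alternative settings, including with any wildtype or Dnup60 array left out (0.10 to 0.13).

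PAU3 shows the pattern on single arrays. It stood at 7.59, 7.57 and 7.65 in Dnup60, at 7.85, 7.88 and 8.06 in Dada2, at 9.69, 9.65 and 9.73 in the labelled double deletion, and at 7.44, 7.23 and 7.31 in wildtype. The 4 groups did not overlap, and the wildtype arrays were lowest. The log2 differences from wildtype were 0.28 ± 0.07 in Dnup60 (SE, adjusted p = 0.00516), 0.60 ± 0.07 in Dada2 (adjusted p = 3.08e-05) and 2.36 ± 0.07 in the labelled double deletion (adjusted p = 1.82e-10).

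PAU21 rose above background in the labelled double deletion and was below it on all arrays of the other 3 strains. It stood at 4.46, 4.82 and 4.60 in Dnup60, 4.85, 5.17 and 5.18 in Dada2, 7.70, 7.90 and 7.71 in the labelled double deletion, and 4.72, 4.53 and 4.26 in wildtype. The labelled double deletion was therefore at least 4.44-fold higher than wildtype (adjusted p = 3.43e-09), where the bound sets its mean against the background level, as do all "at least" folds here. In Dada2 both the deletion and the wildtype arrays lay below background, so the call there (adjusted p = 0.00573) is given no fold.

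The other 5 PAU genes moved less. PAU4 averaged 10.41 ± 0.11 in Dnup60, 10.60 ± 0.07 in Dada2, 11.21 ± 0.07 in the labelled double deletion and 10.31 ± 0.11 in wildtype (SD, n = 3 each). The log2 differences of the labelled double deletion from wildtype were 0.90 for PAU4, 0.75 for PAU14, 0.74 for PAU8, 0.71 for PAU18 and 0.43 for PAU24, each above the spread of its arrays. Outside the members 6 more PAU genes were measured, of which 3 were higher and 1 lower in the labelled double deletion, with a median of 0.50. The lower 1 was PAU17, at 11.95 ± 0.04 in the labelled double deletion and 12.53 ± 0.25 in wildtype (SD, n = 3 each, adjusted p = 3.09e-04).

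The COS genes encode membrane proteins that act in the sorting of plasma membrane proteins for breakdown in the vacuole. Of 11 members 8 were measured, 3 of them by shared probe sets. The labelled double deletion had 6 higher and 1 lower than wildtype, with a median log2 difference of 0.58, and 5 were higher and 1 lower after quantile normalization. In Dnup60 and in Dada2 2 were higher and 1 lower, with medians of 0.07 and 0.01. The members that rose in a single deletion differed: COS4 and COS12 in Dnup60 and COS7 and COS12 in Dada2.

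COS12 changed most within the family. It stood at 8.87, 8.61 and 8.76 in Dnup60, 8.43, 9.20 and 9.54 in Dada2, 10.13, 10.07 and 10.30 in the labelled double deletion, and 7.32, 7.45 and 7.84 in wildtype. All deletion arrays lay above all wildtype arrays, with overlap between Dnup60 and Dada2. The log2 differences were 1.21 ± 0.23 in Dnup60 (SE, adjusted p = 0.00151), 1.52 ± 0.23 in Dada2 (adjusted p = 3.60e-04) and 2.63 ± 0.23 in the labelled double deletion (adjusted p = 1.56e-06). The interaction, the excess of the labelled double deletion over the sum of the 2 single effects, was -0.10 ± 0.33 for COS12 and did not pass (adjusted p = 0.827).

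COS2 and COS4, the brightest of the family, rose by small and even amounts. COS2 read 13.94, 13.99 and 13.97 in Dnup60, 13.89, 13.93 and 13.88 in Dada2, 14.50, 14.44 and 14.50 in the labelled double deletion, and 14.02, 13.98 and 13.91 in wildtype. Its arrays in the labelled double deletion lay above all others, with a log2 difference from wildtype of 0.51 ± 0.04 (SE, adjusted p = 3.01e-07). COS4 differed by 0.53, COS8 by 0.63 and COS7 by 1.15. COS9 was lower in all 3 strains, by -0.17 in Dnup60, -0.27 in Dada2 and -0.30 in the labelled double deletion. COS6 did not pass in any of them. COS10 read 7.48, 7.66 and 7.90 in the labelled double deletion but 7.77, 6.06 and 6.47 in wildtype, so the groups overlapped, and its call at 0.91 ± 0.34 (SE, adjusted p = 0.0315) was lost under 7 alternative settings, among them leaving out wildtype array 2 (0.56) or 3 (0.77) or labelled double deletion array 2 (0.93) or 3 (0.80). Without wildtype array 1 the COS10 difference was 1.42. COS7 lost its call in Dada2 without wildtype array 1 (0.26) or Dada2 array 3 (0.39), and COS9 lost its call in Dnup60 without wildtype array 2 (-0.14) or Dnup60 array 2 (-0.15).

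**Figure D3:**
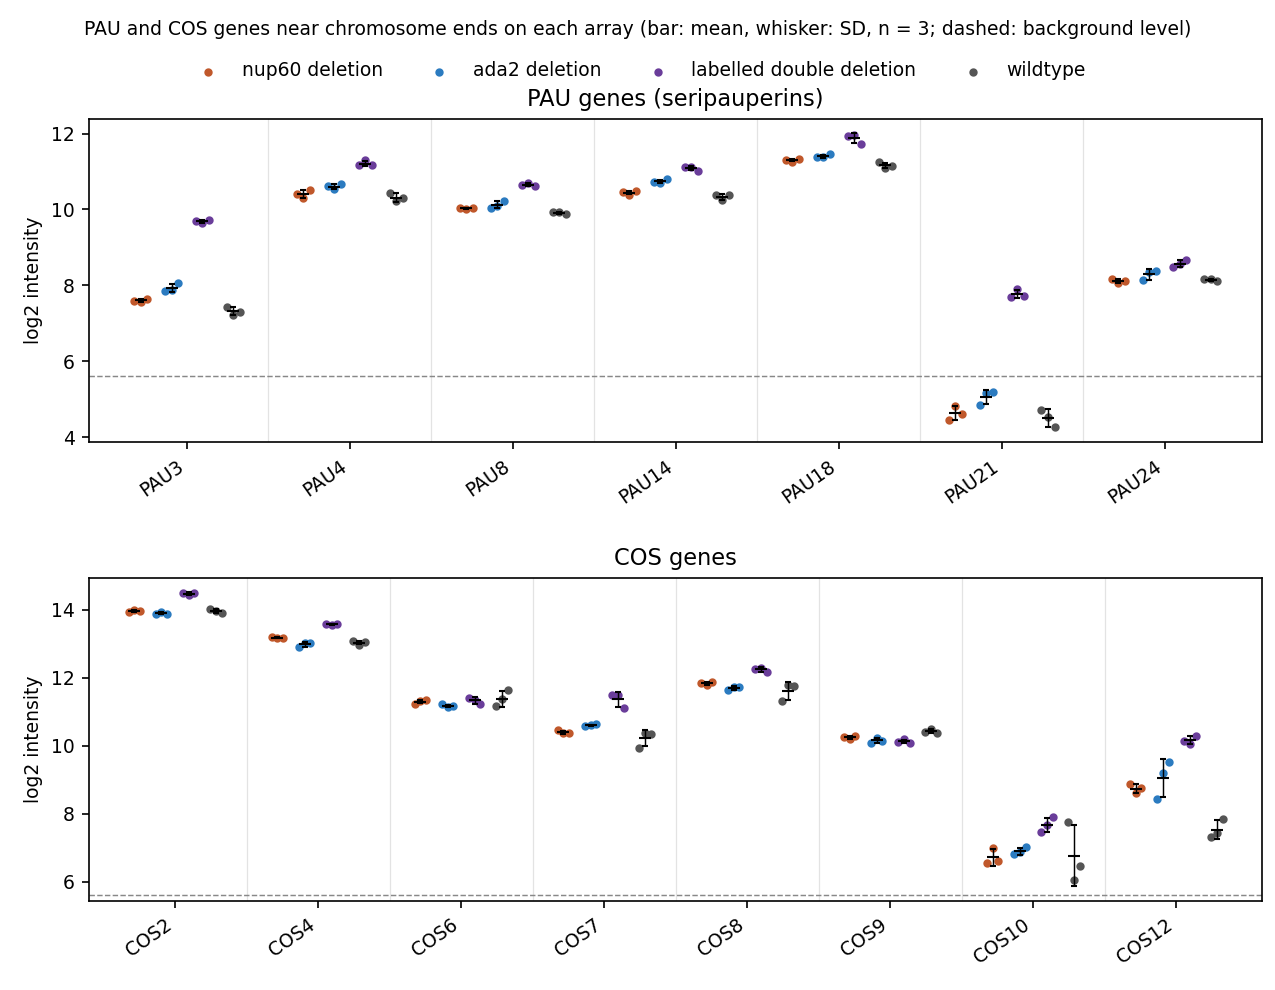
Log2 intensity (vertical axis) of the 7 PAU and 8 COS genes measured at the arm ends on each array of Dnup60, Dada2, the labelled double deletion and wildtype; points are arrays, bars means, whiskers SD (n = 3), and the dashed line is the background level of 5.62. The 3 arrays of the labelled double deletion lie above the 3 wildtype arrays for all 7 PAU genes and for COS2, COS4, COS7, COS8 and COS12.

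The FLO genes encode flocculins, the cell wall proteins that let cells stick together. Of the 3 measured 1 was read by a shared probe set. All 3 measured of 4 were higher in the labelled double deletion than in wildtype, by log2 differences of 0.39 (FLO9), 0.73 (FLO10) and 0.90 (FLO1). After quantile normalization they were still higher, with a median of 0.35 against 0.73 before. FLO1 and FLO10 were also higher in Dada2, and FLO9 was lower in Dnup60. FLO1 stood at 7.57, 7.61 and 7.61 in Dnup60, 8.09, 8.45 and 8.35 in Dada2, 8.73, 8.85 and 8.47 in the labelled double deletion, and 8.02, 7.73 and 7.61 in wildtype. For FLO1 the Dnup60 arrays overlapped wildtype and lay below all Dada2 arrays, and Dnup60 was called lower than Dada2 for all 3 FLO genes.

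The AAD genes encode putative aryl-alcohol dehydrogenases. Shared probe sets read 2 of the 4 measured. All 4 measured of 5 were higher in the labelled double deletion, by log2 differences of 0.31 (AAD14), 0.71 (AAD3), 0.84 (AAD10) and 0.86 (AAD4), and quantile normalization kept 3 of these calls. AAD4 stood at 11.61, 11.63 and 11.56 in Dnup60, 11.41, 11.41 and 11.44 in Dada2, 12.20, 12.14 and 12.06 in the labelled double deletion, and 11.29, 11.28 and 11.25 in wildtype. Its 4 groups did not overlap. With the mean of all probe sets of the gene, AAD4 lost its call in each single deletion. Its difference was then 0.18 in Dnup60 (limma, adjusted p = 0.0774) and 0.04 in Dada2 (limma, adjusted p = 0.713). AAD3 was lower in Dnup60 by -0.22 ± 0.08 (SE, adjusted p = 0.0318) and higher in Dada2 by 0.26 ± 0.08 (adjusted p = 0.0183), and the direct difference between these strains was -0.47 ± 0.08 (adjusted p = 3.45e-04). The fall of AAD3 in Dnup60 lost its call without wildtype array 1 (-0.13) or Dnup60 array 1 (-0.17) or 3 (-0.23), and its rise in Dada2 without wildtype array 2 (0.20) or 3 (0.22) or Dada2 array 2 (0.23). With the mean of all probe sets of the gene the AAD3 difference in Dada2 was 0.05 (limma, adjusted p = 0.678), and with only the groups compared in the fit neither call held (adjusted p = 0.0909 in Dnup60 and 0.0524 in Dada2).

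The sugar genes at the arm ends comprise maltose permeases, maltases and their activators (MAL), isomaltases (IMA), hexose transporters (HXT) and related permeases (MPH). Of 21 members 15 were measured, 5 of them by shared probe sets, whose values can hold signal of relatives. In the labelled double deletion 11 were higher and 1 lower than in wildtype with a median log2 difference of 0.63, in Dnup60 6 were higher and 1 lower (0.11), and in Dada2 5 were higher and 3 lower (-0.03). Quantile normalization turned the balance in Dnup60 to 4 higher and 6 lower (median -0.07), gave 4 and 4 in Dada2, and gave 9 and 3 in the labelled double deletion, where MPH2 turned to a fall of -0.32 against a rise of 0.22 before.

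The MAL genes lie as clusters on arms IIR and VIIR. MAL12 on VIIR was not measured. On IIR the maltase MAL32 stood at 7.20, 7.39 and 7.15 in Dnup60, 6.92, 7.04 and 6.93 in Dada2, 8.77, 8.74 and 8.66 in the labelled double deletion, and 6.85, 6.61 and 6.73 in wildtype. Its groups did not overlap, and the labelled double deletion differed from wildtype by 1.99 ± 0.07 (SE, adjusted p = 1.66e-09). The permease MAL31 beside it was higher by 0.58 in Dnup60 and 1.33 in the labelled double deletion, and its value of -0.24 in Dada2 did not pass. The activator MAL33 was higher by 0.34, 0.92 and 1.07 in Dnup60, Dada2 and the labelled double deletion. On VIIR the permease MAL11 was higher by 0.51 in Dnup60 and by 1.37 in the labelled double deletion, the activator MAL13 by 0.27 in Dada2 and 0.63 in the labelled double deletion, and the isomaltase IMA1 by 0.81 in the labelled double deletion. The MAL13 rise in Dada2 lost its call with any of 5 arrays left out (wildtype 1 or 3, or any Dada2 array) at 0.22 to 0.27, the MAL33 rise in Dnup60 lost it without wildtype array 1 (0.25) or Dnup60 array 2 (0.32), and MAL32 in Dada2 lost it without wildtype array 2 (0.17) or 3 (0.23) or Dada2 array 2 (0.19).

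The hexose transporters did not move as a block. HXT9 stood at 8.04, 8.26 and 8.16 in Dnup60, 8.83, 9.08 and 9.03 in Dada2, 9.47, 9.70 and 9.47 in the labelled double deletion, and 7.52, 7.58 and 7.73 in wildtype, with no overlap between groups. Its log2 differences were 0.54 ± 0.09 in Dnup60 (SE, adjusted p = 5.86e-04), 1.37 ± 0.09 in Dada2 (adjusted p = 7.46e-07) and 1.94 ± 0.09 in the labelled double deletion (adjusted p = 9.25e-09). After quantile normalization the HXT9 difference in Dnup60 was 0.25 and did not pass. HXT11 was higher by 1.12 in the labelled double deletion. HXT17 was lower in Dada2 (-0.36) and in the labelled double deletion (-0.30), the second at an adjusted p of 0.0497 and lost under 13 alternative settings, with values of -0.16 to -0.35. HXT13, HXT15 and HXT8 stayed below background on every array, although HXT13 was called higher in Dnup60 and in the labelled double deletion. The isomaltase genes IMA3 and IMA5 moved in opposite directions in Dada2, at 0.34 and -0.55. The Dada2 calls of HXT17 and IMA3 were lost when single arrays were left out, at -0.21 to -0.39 for HXT17 (any wildtype array, or Dada2 array 2 or 3) and at 0.23 to 0.32 for IMA3 (wildtype array 2 or 3, or Dada2 array 2).

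Of the SNO, SNZ and HSP31-like genes, which belong to vitamin B6 synthesis and to a family of stress-related glyoxalases, 4 of 8 were measured. Shared probe sets read 3 of these 4. All 4 were higher in Dada2 (median 0.54) and in the labelled double deletion (median 1.16), and 2 were higher and 1 lower in Dnup60. SNO4 stood at 7.35, 7.38 and 7.21 in Dnup60, 7.93, 8.17 and 8.11 in Dada2, 8.89, 8.87 and 8.78 in the labelled double deletion, and 6.43, 6.24 and 6.33 in wildtype. The groups formed 4 separate steps with wildtype lowest, at log2 differences of 0.98, 1.74 and 2.51. HSP31 was higher by 0.58, 0.32 and 1.51 in the same order of strains. SNZ3 was higher by 0.51 in Dada2 and 0.81 in the labelled double deletion. SNO3 was lower in Dnup60 at -0.10 and higher in Dada2 at 0.58 and in the labelled double deletion at 0.38. Its call in Dnup60 was lost under 7 alternative settings, at -0.08 to -0.11, among them without wildtype array 1 or 2 or Dnup60 array 1 or 3.

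ERR3, an enolase-related gene at rank 2 of arm XIIIR next to SNO4, was among the members that changed most. It stood at 7.75, 7.52 and 7.48 in Dnup60, 7.75, 7.87 and 8.16 in Dada2, 11.04, 10.86 and 10.74 in the labelled double deletion, and 7.30, 6.69 and 7.08 in wildtype. The labelled double deletion lay far above the other groups, while Dnup60 and Dada2 overlapped. The log2 differences were 0.56 ± 0.15 in Dnup60 (SE, adjusted p = 0.0112), 0.90 ± 0.15 in Dada2 (adjusted p = 7.64e-04) and 3.85 ± 0.15 in the labelled double deletion (adjusted p = 2.95e-09). The Dnup60 difference of ERR3 did not pass after quantile normalization (0.30, limma, adjusted p = 0.0750). Its probe set shares sequence with other genes, and 2 further ERR members were not measured. VTH1, a gene related to the vacuolar sorting receptor gene VPS10, was lower in Dnup60 by -0.38 and higher in Dada2 by 0.44 and in the labelled double deletion by 0.43. The VTH1 probe set shares sequence with other genes too, and VTH2 was not measured.

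The remaining members were genes without a name and named genes of other kinds. Among 53 members with no gene name, 29 were higher and 9 lower in the labelled double deletion (median 0.30), 15 and 4 in Dada2 (0.08) and 10 and 11 in Dnup60 (-0.06). Among 118 other named genes, 51 were higher and 32 lower in the labelled double deletion (median 0.12), 40 and 24 in Dada2 (0.05) and 33 and 27 in Dnup60 (0.02). Quantile normalization brought the other named genes of the labelled double deletion to 42 higher and 44 lower. Over the 171 members read by probe sets of their own sequence, the labelled double deletion had 84 higher and 38 lower, and over the 44 with shared sequence 33 and 6.

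**Figure D4:**
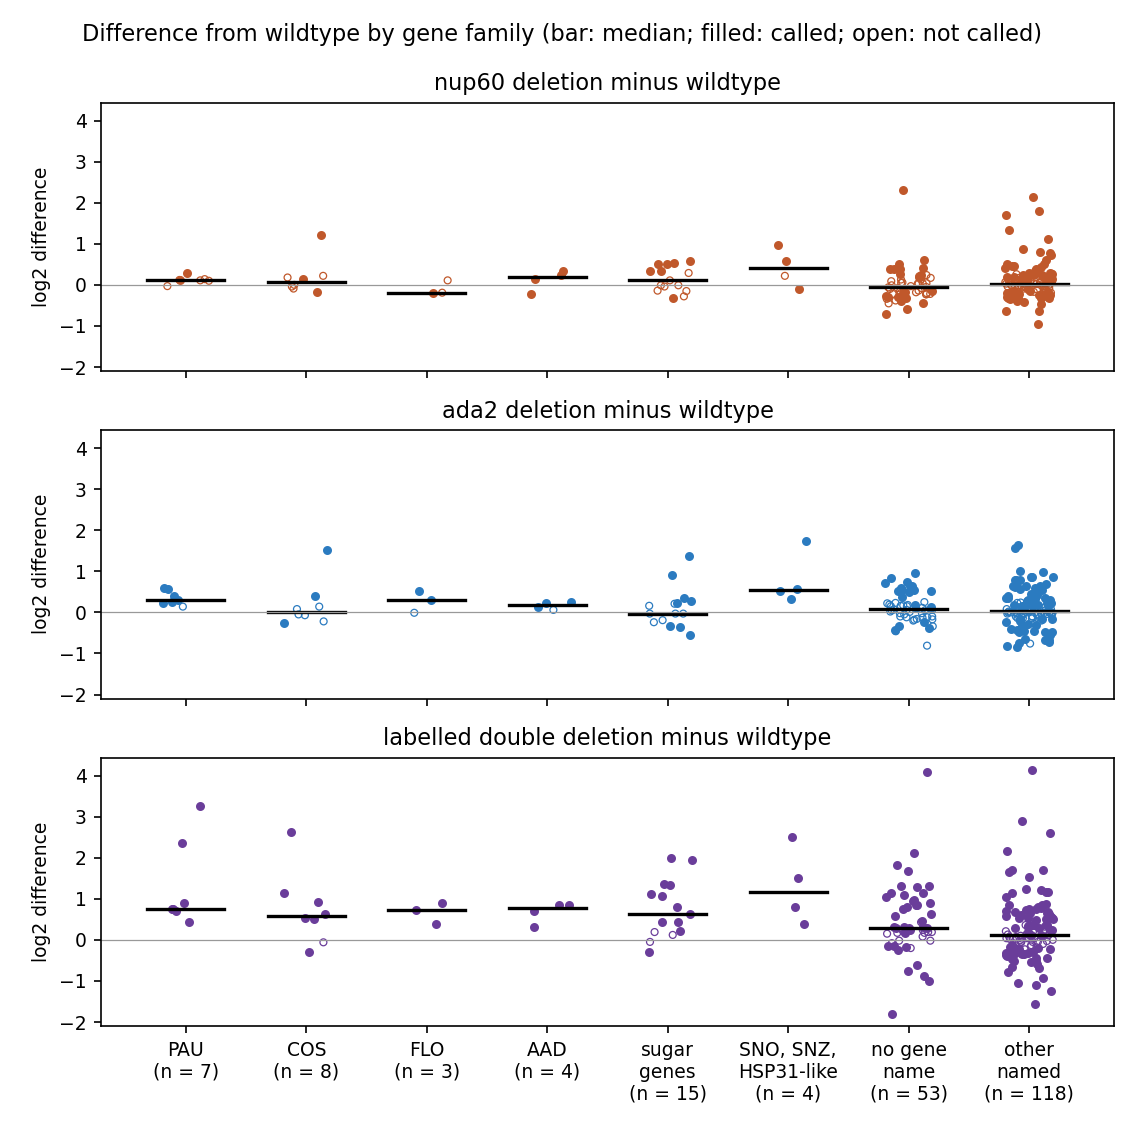
Log2 difference in intensity from wildtype (vertical axis) of each measured outermost gene by family (horizontal axis), with panels for Dnup60, Dada2 and the labelled double deletion; bars are medians, filled points were called and open points were not. In the labelled double deletion the medians were 0.75 for PAU, 0.58 for COS, 0.63 for sugar genes and 0.12 for other named genes.

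YPS6 and YPS5 encode yapsins, aspartic proteases of the cell surface, and among named genes outside these families YPS6 differed most from wildtype in each of the 3 strains. YPS6 stood at 9.63, 9.67 and 9.65 in Dnup60, 9.02, 9.03 and 9.37 in Dada2, 11.74, 11.61 and 11.56 in the labelled double deletion, and 7.43, 7.66 and 7.40 in wildtype. Its 4 groups did not overlap, and its log2 differences from wildtype were 2.15 ± 0.10 in Dnup60 (SE, adjusted p = 2.73e-08), 1.64 ± 0.10 in Dada2 (adjusted p = 2.88e-07) and 4.14 ± 0.10 in the labelled double deletion (adjusted p = 4.63e-11). YPS5 on arm VIIL was below background on all wildtype and Dada2 arrays, was above it on 2 of 3 Dnup60 arrays, and was at least 1.09-fold higher in Dnup60 and at least 3.77-fold higher in the labelled double deletion. YIR042C, which lies at rank 2 of arm IXR near YPS6, read 8.00, 8.39 and 8.35 in Dnup60, 5.46, 5.58 and 6.49 in Dada2, 10.16, 10.12 and 9.82 in the labelled double deletion, and 5.59, 6.32 and 5.93 in wildtype. It was higher in Dnup60 by 2.30 ± 0.26 (SE, adjusted p = 4.04e-05) and in the labelled double deletion by 4.09 ± 0.26 (adjusted p = 9.95e-08), while Dada2 overlapped wildtype; only 1 of 3 Dada2 and 2 of 3 wildtype arrays were above background.

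Further rises in Dnup60 were found in genes of several roles. MSC1, a gene that affects the choice of partner in meiotic recombination, was at 12.12 ± 0.08 in Dnup60 and 10.31 ± 0.18 in wildtype (SD, n = 3 each), a log2 difference of 1.81. The methyltransferase gene CRG1 rose by 1.69, the putative butanediol dehydrogenase gene BDH2 by 1.34, the glutathione transferase gene GTT1 by 1.11 and the formate dehydrogenase gene FDH1 by 0.87. All 3 Dnup60 arrays lay above all 3 wildtype arrays for each of these genes.

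The falls in Dnup60 were smaller than the rises. ZRT1, the high-affinity zinc transporter gene, stood at 10.61, 10.67 and 10.65 in Dnup60, 12.40, 12.36 and 12.40 in Dada2, 11.14, 11.23 and 10.87 in the labelled double deletion, and 11.46, 11.67 and 11.67 in wildtype. It was lower in Dnup60 by -0.96 ± 0.08 (SE, adjusted p = 5.93e-06) and in the labelled double deletion by -0.52 ± 0.08 (adjusted p = 1.90e-04), and higher in Dada2 by 0.79 ± 0.08 (adjusted p = 2.64e-05). In all 45 members were called lower in Dnup60. Next to ZRT1, the largest falls whose arrays did not overlap wildtype were YER187W at -0.70, the exocytosis gene SRO77 at -0.64, FIT1, whose product holds iron carriers in the cell wall, at -0.63, YKR104W at -0.59, YAR068W at -0.45, the serine and threonine deaminase gene CHA1 at -0.42, YFL065C at -0.39, the transporter gene PDR18 at -0.39 and VTH1 at -0.38. YFL065C lost its call without Dnup60 array 1 (-0.39) or 3 (-0.36). Without wildtype array 1, which had high spikes, YFL065C stood at -0.22 and YKR104W at -0.38, and both still passed.

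Beside YPS6 and the family members above, the largest rises in Dada2 without overlap were those of YAT1, PCK1, SEO1 and YAR066W. YAT1, a mitochondrial carnitine acetyltransferase gene, stood at 9.50, 9.29 and 9.41 in Dnup60, 10.75, 10.77 and 10.81 in Dada2, 11.02, 10.88 and 10.79 in the labelled double deletion, and 9.07, 9.33 and 9.21 in wildtype. It was higher in Dada2 by 1.57 ± 0.08 (SE, adjusted p = 7.49e-08) and in the labelled double deletion by 1.69 ± 0.08 (adjusted p = 8.08e-09), while Dnup60 and wildtype overlapped. PCK1, whose product opens gluconeogenesis, rose by 1.01, the putative permease gene SEO1 by 0.99 and YAR066W by 0.96.

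The largest fall in Dada2 among the members was that of BIO2, the biotin synthase gene. BIO2 stood at 10.76, 10.70 and 10.74 in Dnup60, 9.61, 9.67 and 9.62 in Dada2, 10.51, 10.56 and 10.34 in the labelled double deletion, and 10.87, 11.04 and 10.97 in wildtype. It was lower by -1.33 ± 0.06 in Dada2 (SE, adjusted p = 3.68e-08), and the smaller falls of -0.23 in Dnup60 and -0.49 in the labelled double deletion also passed. The butanediol dehydrogenase gene BDH1 and its neighbour BDH2 were lower in Dada2 by -0.84 and -0.74. Of the 33 members called lower in Dada2, the others among the 10 largest without overlap were the oligopeptide transporter gene OPT2 at -0.83, the glutathione exchanger gene GEX1 at -0.73, the pectin-degrading enzyme gene PGU1 at -0.67, DIA1 at -0.67, the branched-chain aminotransferase gene BAT1 at -0.65, IMA5 at -0.55 and the sulphur amino acid lyase gene IRC7 at -0.54. The GEX1 probe set shares sequence with other genes.

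CRG1 rose by 2.89 in the labelled double deletion and DSF1, a gene related to mannitol dehydrogenases, by 2.17. DSF1 stood at 7.29, 7.44 and 7.18 in Dnup60, 7.58, 7.74 and 7.79 in Dada2, 9.62, 9.63 and 9.45 in the labelled double deletion, and 7.15, 7.45 and 7.59 in wildtype. Only the labelled double deletion lay apart from the other groups, and it differed from wildtype by 2.17 ± 0.11 (SE, adjusted p = 1.70e-08). The DSF1 probe set shares sequence with other genes, so its values can hold their signal. CRG1 instead stepped up in each strain, at 10.39 ± 0.04 in Dnup60, 9.35 ± 0.04 in Dada2, 11.59 ± 0.04 in the labelled double deletion and 8.69 ± 0.01 in wildtype (SD, n = 3 each).

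The falls in the labelled double deletion were led by YER187W, a gene with no name. It stood at 7.54, 7.23 and 7.47 in Dnup60, 8.10, 8.44 and 8.32 in Dada2, 6.50, 6.54 and 5.90 in the labelled double deletion, and 7.87, 8.24 and 8.23 in wildtype, and was lower in the labelled double deletion by -1.80 ± 0.17 (SE, adjusted p = 3.01e-06). CHA1 was lower there by -1.56, IRC7 by -1.24, the RNA-binding protein gene YRA2 by -1.10 and the siderophore transporter gene ENB1 by -1.05. Smaller falls were YAR068W at -0.99, YAR066W at -0.87, the ribosome export gene ECM1 at -0.79 and YDL241W at -0.76. URA1, whose product makes orotate in uracil synthesis, stood at 14.39 to 14.41 in Dnup60, 14.59 to 14.63 in Dada2, 13.45 to 13.64 in the labelled double deletion and 14.45 to 14.49 in wildtype, a log2 difference of -0.94 ± 0.05 (SE, adjusted p = 1.58e-08) in the labelled double deletion. This fall stood beside the high URA3 level of that strain, whose part in it was not tested.

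Dnup60 and Dada2 were also set against each other directly. The wildtype arrays do not enter this difference, but they share in the spread that sets its errors and calls. Of the 215 members 51 were higher in Dnup60 than in Dada2 (23.7%, beside 25.9% of all genes) and 77 were lower (35.8%, beside 26.9%). At least 2-fold calls were 8 upward and 6 downward, beside 2.97% and 0.606% of all genes. YIR042C was higher in Dnup60 than in Dada2 by 2.40 ± 0.26 (SE, adjusted p = 1.93e-05), BDH2 by 2.08, MSC1 by 1.56, GEX1 by 1.12 and BDH1 by 1.10. ZRT1 was lower in Dnup60 than in Dada2 by -1.75 ± 0.08 (SE, adjusted p = 3.90e-08), YAT1 by -1.38, YAR066W by -1.25, SRO77 by -1.18 and YAR068W by -1.15. Of the 7 PAU genes 4 were lower in Dnup60 than in Dada2 and none was called higher, and of the 8 COS genes only COS4 passed, higher in Dnup60. A fit on these 2 strains alone gave 64 members higher and 91 lower, beside 1770 and 1967 of all genes.

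The labelled double deletion lay above each single deletion at many arm ends. Against Dnup60 119 members were higher (55.3%, beside 33.1% of all genes) and 37 lower (17.2%, beside 30.6%), with a median log2 difference of 0.26. At least 2-fold calls there were 30 upward and 4 downward, beside 2.66% and 1.36% of all genes. Against Dada2 116 were higher (54.0%, beside 35.2%) and 40 lower (18.6%, beside 33.9%), with a median of 0.25, and quantile normalization gave 89 higher and 59 lower there. At least 2-fold calls against Dada2 were 24 upward and 7 downward, beside 5.25% and 1.45% of all genes. All 7 PAU, all 3 FLO and all 4 AAD genes were higher than in either single deletion. The largest differences from Dnup60 were ERR3 at 3.29, DSF1 at 2.26, PAU3 at 2.09 and YPS6 at 1.99 upward, and BDH2 at -1.19, CHA1 at -1.14, IRC7 at -1.12, YER187W at -1.10 and ENB1 at -0.90 downward. Those from Dada2 were YIR042C at 4.19, ERR3 at 2.95 and YPS6 at 2.50 upward, and YER187W at -1.98, CHA1 at -1.91, YAR066W at -1.82, YAR068W at -1.70 and ZRT1 at -1.31 downward. YIR042C was above background on 1 of 3 Dada2 arrays, and with the other arrays set to the background level its difference was 4.13. PAU21 was at least 4.44-fold higher in the labelled double deletion than in either single deletion, and YPS5 at least 3.77-fold higher than in Dada2, since those arrays of the single deletions were below background.

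The interaction asked whether the labelled double deletion differed from wildtype by more or less than the 2 single deletions add up to on the log2 scale. It was positive for 82 members (38.1%, beside 20.6% of all genes) and negative for 32 (14.9%, beside 18.5%), with a median of 0.19 against 0.02. Interactions of at least 2-fold were 14 positive and 5 negative, beside 1.56% and 1.17% of all genes. Quantile normalization gave 72 and 37, and leaving out the 2 arrays with high spikes gave 96 and 34. By level, 45.0% of the dimmer and 31.1% of the brighter members were positive, beside 25.3% and 18.6% of other genes. The 44 members read by shared probe sets held 8 positive and 1 negative interactions of at least 2-fold (18.2% positive). The 171 members with probe sets of their own sequence held 6 and 4 (3.51% positive). All 7 PAU and all 3 FLO genes were positive, as were 8 of 15 sugar genes, with none of these negative, and 3 of 8 COS genes. Several of these calls were lost when single arrays were left out. FLO10 lost its call with any of 7 arrays (range over all 12 left-out arrays 0.25 to 0.39), with the replicate block (0.31) and without the 2 arrays with high spikes (0.28). FLO1 lost it with 3 (0.46 to 0.68), PAU14 with 2 (0.21 to 0.28), PAU24 with 1 (0.24 to 0.36) and after quantile normalization (0.19), MAL13 with 9 (0.31 to 0.48) and HXT8 with 6 (0.37 to 0.55). HXT8 was also below background on every array.

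**Figure D5:**
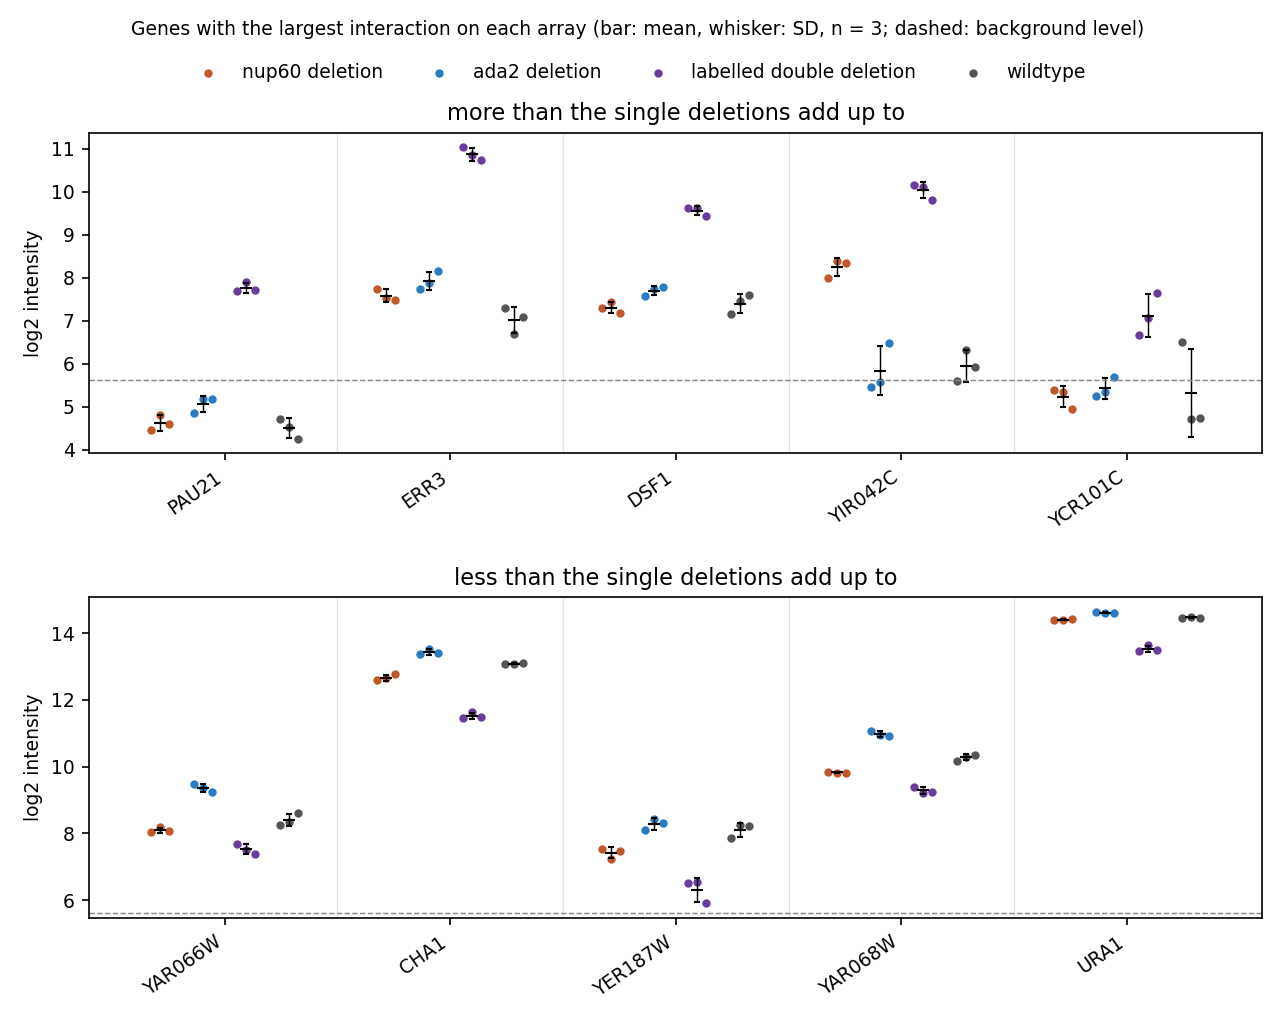
Log2 intensity (vertical axis) on each array of the 10 outermost genes with the largest interaction, 5 positive and 5 negative, for Dnup60, Dada2, the labelled double deletion and wildtype; points are arrays, bars means, whiskers SD (n = 3), and the dashed line is the background level of 5.62. The arrays of the labelled double deletion lie above all others for the first 5 genes and below all others for the last 5; PAU21 lies under the background line in the other 3 strains.

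Positive interactions were largest for ERR3 at 2.39 ± 0.22 (SE, adjusted p = 2.18e-05), DSF1 at 1.95 ± 0.16 (adjusted p = 7.81e-06), YIR042C at 1.89 ± 0.37 (adjusted p = 0.00255), YCR101C at 1.78 ± 0.60 (adjusted p = 0.0364) and PAU21. The fit gave PAU21 an interaction of 2.58 ± 0.19 (SE, adjusted p = 4.51e-06), but its arrays in Dnup60, Dada2 and wildtype were all below background, so its place in this order is not settled, and with those arrays set to the background level the value was 2.15. Set in the same way, YIR042C came to 1.83 and YCR101C, with 0 of 3 Dnup60 and 1 of 3 Dada2 and of 3 wildtype arrays above background, to 1.77. YCR101C read 6.66, 7.07 and 7.64 in the labelled double deletion and 6.50, 4.71 and 4.75 in wildtype, with the highest values on the 2 arrays with high spikes. Its interaction lost the call under 9 alternative settings, at 1.43 to 1.86, among them without any Dnup60 array, Dada2 array 1 or 2, or labelled double deletion array 2 or 3. It was 1.19 without wildtype array 1. Without both arrays with high spikes it was 0.93 ± 0.24 and passed (SE, adjusted p = 0.0113). Negative interactions were largest for YAR066W at -1.53 ± 0.14, CHA1 at -1.49 ± 0.08, YER187W at -1.28 ± 0.24, YAR068W at -1.25 ± 0.09 and URA1 at -1.02 ± 0.07 (SE). CHA1 stood at 12.58, 12.65 and 12.76 in Dnup60, 13.38, 13.53 and 13.39 in Dada2, 11.46, 11.62 and 11.49 in the labelled double deletion, and 13.08, 13.08 and 13.09 in wildtype. It was thus lower in Dnup60 and higher in Dada2 than in wildtype, and lowest in the labelled double deletion. YAR066W and YAR068W, neighbours on arm IR, showed the same order of groups as CHA1. The YAR066W probe set shares sequence with other genes.

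Over the whole set of call patterns against wildtype, 31 members were higher in all 3 strains and 9 lower in all 3, 27 were higher in the labelled double deletion alone and 27 were called in none. These patterns were not counted over all genes, and the 3 comparisons share the wildtype arrays. The counts therefore do not show whether the members differ from other genes in this. The labelled double deletion had the highest group mean for 130 members (60.5%, beside 36.6% of all genes), and wildtype had the lowest for 76 (35.3%, beside 25.6%).

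The other genes of the pathway were a list of 29, of which 25 encode telomere, silencing and chromatin factors and 4 encode regulators of anaerobic genes (UPC2, MOT3, ROX1 and SUT1). Of the 25, 0 were called higher and 16 lower in Dnup60 (median log2 difference -0.29), 5 higher and 0 lower in Dada2 (-0.06), and 4 higher and 13 lower in the labelled double deletion (-0.28). The shares called lower were 64.0% in Dnup60 and 52.0% in the labelled double deletion, beside 26.2% and 37.1% of all genes. In Dada2 22.7% of all genes were called higher, beside the 5 of 25. Over all 29 the counts were 1 and 17, 6 and 1, and 5 and 16 in the same order. Among the 25 the log2 differences in the labelled double deletion ran from -0.81 to a called rise of 1.01. RAP1, the telomere-binding factor, stood at 10.92, 10.91 and 10.92 in Dnup60, 11.27, 11.22 and 11.27 in Dada2, 10.48, 10.46 and 10.67 in the labelled double deletion, and 11.59, 11.25 and 11.18 in wildtype. The Dnup60 arrays and those of the labelled double deletion lay below all wildtype arrays, of which array 1, with high spikes, was the highest. SIR2, the histone deacetylase gene of the silencing complex, was lower by -0.29 in Dnup60 and -0.41 in the labelled double deletion. SIR3 was lower by -0.27 in Dnup60, and by -0.19 without wildtype array 1. SIR4 was lower in Dnup60 by -0.19 and higher in Dada2 by 0.18, and neither call held throughout. The call in Dnup60 was lost with 8 of the 12 arrays left out singly, among them wildtype array 1 (-0.10). The call in Dada2 was lost with 9, among them wildtype array 2 (0.13) and 3 (0.15), and its value was 0.27 without wildtype array 1. UPC2, an activator of anaerobic genes, was lower by -0.60 in Dnup60 and -0.84 in the labelled double deletion, and ROX1, the haem-dependent repressor of anaerobic genes, was higher by 0.34, 0.57 and 0.64 in Dnup60, Dada2 and the labelled double deletion. MOT3 and SUT1 were also called lower in the labelled double deletion, and neither was called in Dnup60. In Dada2 the 4 regulators ran from -0.53 to 0.57, with 1 called higher and 1 lower. The part of these changes in the values of the members was not tested.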

How the data were processed

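RNA of 12 yeast cultures, 4 strains with 3 arrays each, was hybridised to Affymetrix arrays as biotin-labelled aRNA made from 5 µg of total RNA. The authors deposited linear intensities per probe set, made by RMA in Affymetrix Expression Console 1.1, as the submitters' processing notes name them; the genome build is not given in the sources used here. These deposited intensities ran from 11.4 to 51828, so log2 was taken here, although log2 values had been planned for. Probe sets naming 1 S. cerevisiae gene (5498 of 10928) gave 5449 genes, the brightest set standing for a gene; symbols came from RefSeq names, and no coordinates are printed. The background level, 5.62, is the 95th percentile of the mean log2 of the 1746 probe sets for the second yeast on the array. Group means of all 12 arrays were fitted with limma 3.58.1 in R 4.3.3 (eBayes), tested on simulated data, with Benjamini-Hochberg adjustment over all genes in each of 7 comparisons at 0.05. The number of arrays limits the precision. The lowest correlation between arrays of a group was 0.993. Members and lists were chosen with earlier results of these data known. Named genes are, for each strain against wildtype, the 10 largest rises and falls among called members whose arrays do not overlap, the 5 largest each way in the other comparisons, the families, rank 1 members and label checks, the brightest and dimmest member and the pathway list. Genes below background and the arm examples were named after their values were seen. Setting values below background to that level, and counting the 4 anaerobic regulators of the pathway list apart, were also chosen then. Alternatives covered normalization, dim genes, variance moderation, probe set choice, shared sequence, replicate block, left-out arrays and the depth of the arm end.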

Additional observations from a re-analysis of the deposited data

Results flagged for a closer look

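By limma's test of the interaction, the difference of the labelled double deletion from Dada2 was set against that of Dnup60 from wildtype. On the log2 scale the interaction was positive for 82 outermost genes (38.1%, beside 20.6% of all genes) and negative for 32 (14.9%, beside 18.5%). The genes with the largest positive differences were PAU21 at 2.58, ERR3 at 2.39, DSF1 at 1.95, YIR042C at 1.89 and YCR101C at 1.78. PAU21, ERR3 and DSF1 were read by probe sets that share sequence with other genes. Over the 171 members with probe sets of their own sequence, 54 were positive (31.6%) and 30 negative (17.5%). PAU21 was below background on all arrays of the other 3 strains, and its value was 2.15 with these set to the background level. YCR101C was above background on 0 of 3 Dnup60, 1 of 3 Dada2 and 1 of 3 wildtype arrays, and its value was 0.93 without the 2 arrays with high spikes. Those with the largest negative differences were YAR066W at -1.53 (read by a shared probe set), CHA1 at -1.49, YER187W at -1.28, YAR068W at -1.25 and URA1 at -1.02. What raised each of these for a closer look was the test of the interaction itself. All of them use the strain labelled Dnup60 Dada2, whose URA3 and mating type genes went against its label, and the part of that difference in these values was not tested.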

How the results depend on the processing

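Over all alternatives 319 recomputed counts of called members stayed within 1.5 times their value and 29 moved further. Recomputed calls of named genes kept direction and call 5795 times, lost the call with the sign kept 273 times and changed sign 4 times. The 4 that changed sign did so after quantile normalization: PAU24 at -0.10, MPH2 at -0.32 and SEO1 at -0.06 in the labelled double deletion and OPT2 at -0.04 in Dnup60, each against wildtype. Of these only MPH2 passed in the new direction, and the others lost the call. Leaving out probe sets with shared sequence gave 54 positive interactions and left no PAU gene. The depth of the arm end sets the counts by construction, and the pairs below are higher and lower. With the 5 highest-numbered ORFs (85 measured) they were 23 and 15 in Dnup60, 35 and 8 in Dada2 and 54 and 12 in the labelled double deletion against wildtype, 57 and 8 for the labelled double deletion against Dnup60, 51 and 12 against Dada2, 17 and 32 for Dnup60 against Dada2, and 43 and 9 for the interaction. With the 20 highest (503 measured) they were 127 and 115, 141 and 87, 224 and 147, 227 and 118, 216 and 136, 126 and 157, and 158 and 86 in the same order.

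Leaving out each array in turn, 49 to 62 members were higher and 32 to 46 lower in Dnup60, 68 to 82 and 29 to 38 in Dada2, and 113 to 128 and 39 to 45 in the labelled double deletion against wildtype. Against Dnup60 the labelled double deletion had 107 to 126 and 30 to 42, and against Dada2 105 to 125 and 37 to 42. Dnup60 against Dada2 had 45 to 57 and 67 to 82, and the interaction 67 to 85 and 25 to 34. With the replicate number as a block the counts were 53 and 41 in Dnup60, 77 and 31 in Dada2, 115 and 43 in the labelled double deletion and 71 and 29 for the interaction. The numbers did not pair the arrays: 18 same-numbered pairs correlated at -0.73 to 0.37, 4 of them over 0.1, and 2 of 12 arrays correlated best with their own number. Pairs with different numbers, 36 in all, correlated at -0.63 to 0.73, 12 of them over 0.1. These values are for deviations from group means. The highest, 0.73, was between wildtype array 1 and labelled double deletion array 3, the arrays with high spikes. The main fit holds no term for such shared deviations. A fit on only the groups compared gives no interaction, which needs all 4. The fit without wildtype array 1 and labelled double deletion array 3 was chosen after seeing the data; it kept 154 of the 161 calls in the labelled double deletion with 0 turned. Signal over background limits the 21 members that fell below 5.62 on some array.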
